A study of Mus musculus with 2 samples.

Results

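The 39 genes described here run the cell division cycle: the cyclins and kinases that drive it, the proteins that license and copy DNA, and the proteins that build the mitotic spindle and divide the chromosomes. They were chosen by symbol, and all 39 symbols matched 1 gene each among the 21951 protein-coding genes of the annotation. The RNA came from macrophages grown in culture from the bone marrow of C57BL/6J mice. The cells had been given lipid A, the portion of bacterial lipopolysaccharide that the receptor TLR4 recognises, at 100 ng/ml for 90 min. Nucleoplasmic RNA, the soluble RNA of the nucleus, was sequenced after removal of ribosomal RNA, so introns and unfinished transcripts are sampled together with mature messages. There was 1 group with 2 libraries, labelled biological replicates 1 and 2 of the same donor entry, and nothing in the labels says that they came from separate animals, so differences between them may be technical in part. Replicate 1 started from 1 µg of RNA and replicate 2 from 500 ng, and sex and age were not recorded. No unstimulated cells and no cytoplasmic RNA were used here, so the levels describe stimulated nuclei and no change with lipid A can be read from them.

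A cell commits to division in G1, when D-type cyclins activate the kinases CDK4 and CDK6, the retinoblastoma proteins are phosphorylated, and E2F factors switch on the genes of DNA replication. Origins are licensed by loading the MCM helicase before S phase begins. A later wave of transcription, driven by B-MYB and FOXM1 through a promoter element called the cell cycle genes homology region, supplies the proteins of mitosis. Macrophages grown with the growth factor CSF1 divide in culture until they mature, and CDK inhibitors such as p21 hold the cycle back. In bulk RNA, fewer dividing cells and less RNA per dividing cell cannot be told apart.

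Most of the 39 genes were under 1 TPM in these nuclei, about as often as protein-coding genes at large, and 3 stood apart from the others. Levels are given in TPM, a relative abundance that corrects for transcript length and can be compared between genes. Both libraries reached 1 TPM for 14 of the 39 genes (35.9%), against 39% of all protein-coding genes (8566 of 21951). Another 21 were under 1 TPM in both libraries and 4 crossed that line in 1 library. The median over the 39 genes was 0.830 TPM in replicate 1 and 0.770 in replicate 2, and that over all protein-coding genes, expressed or not, was 0.220 and 0.270 TPM. Among the protein-coding genes that reached 1 TPM in both libraries the median was 6.62 and 8.69 TPM. Mki67, Ccnd2 and Pcna were the members above that in both libraries, and together they held 56.3% and 58.3% of the TPM of all 39 genes. Such counts depend on the scale. In a second quantification of the same libraries 19 of the 39 (48.7%) reached 1 TPM in both, against 44.4% of protein-coding genes, and on TPM rescaled to protein-coding genes 29 (74.4%) did, against 46.9%. The rescaled median over all protein-coding genes was 0.984 and 0.688 TPM, higher in replicate 1, whereas the unscaled one was higher in replicate 2. An SD given below therefore describes unscaled TPM alone. The order of the genes was similar in both libraries, with Spearman's rho of 0.94 across the 39 genes, which share libraries and are not independent of each other. Going down the order by mean level, 7 of the 38 pairs of neighbours did not overlap between libraries. Mki67 lay above Ccnd2, Pcna above Tk1, Tk1 above Cdt1 and Cenpa above Top2a in this sense, whereas Ccnd2 could not be ordered against Pcna, nor Cdt1 against Cenpa. The second quantification reversed the first of these without overlap, with Ccnd2 at 29.4 and 26 TPM and Mki67 at 19.4 and 21.6, and kept the other 3. Of that Ccnd2 level, 11.0 and 10.1 TPM lay in the noncoding transcript Ccnd2-207, of 415 bases.

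**Figure D1:**
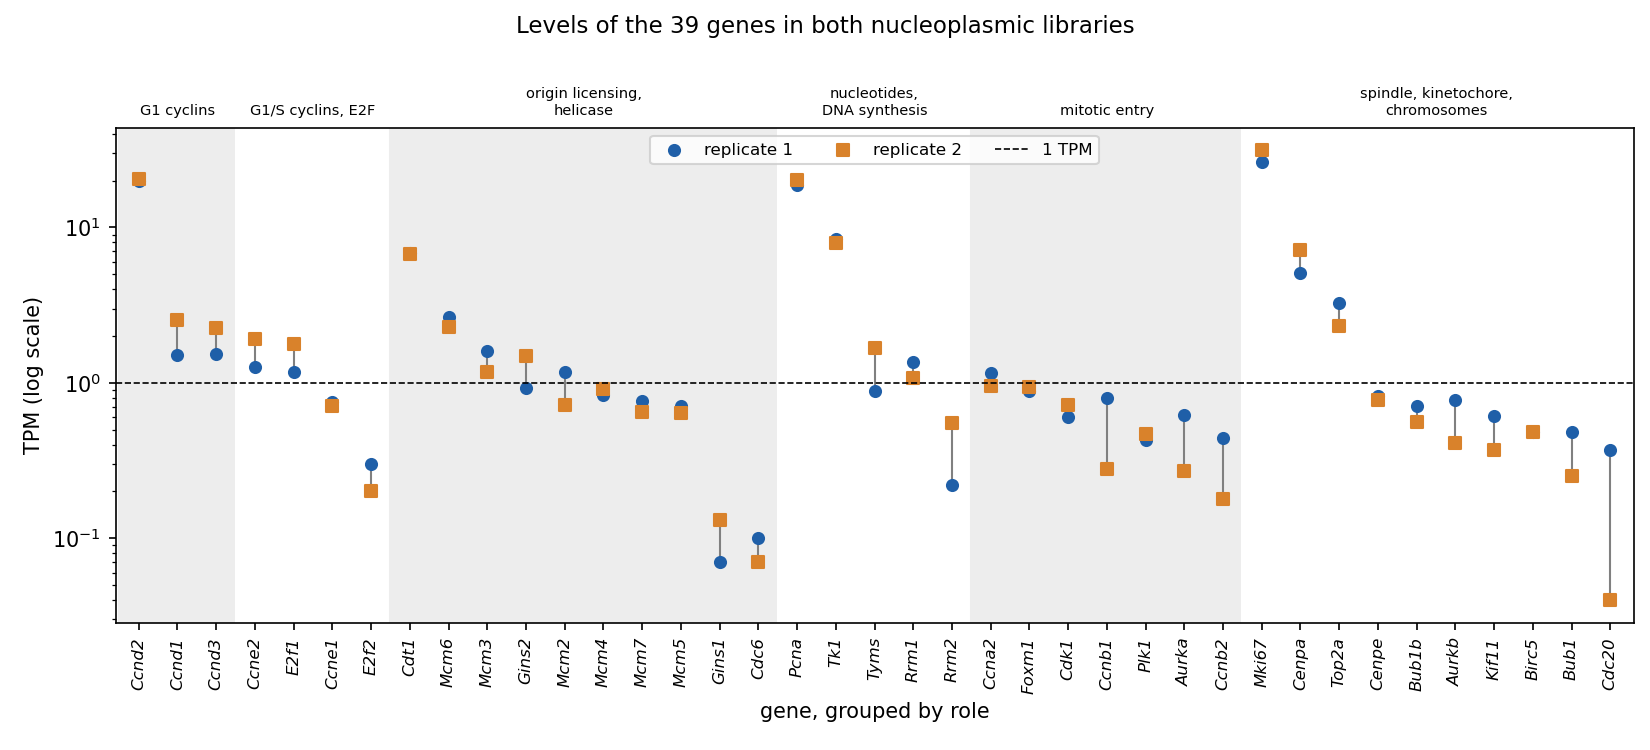
TPM of each of the 39 genes on a log axis, grouped by role, with circles for replicate 1, squares for replicate 2, a line joining both and a dashed line at 1 TPM. Mki67, Ccnd2 and Pcna lie between 18.77 and 31.49 TPM, and the genes of mitotic entry lie near or under 1 TPM.

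Marker genes were read against the cell type on the label. All 10 macrophage genes examined, such as Adgre1 (the F4/80 antigen) and Mpeg1 (perforin-2), reached 10 TPM in both libraries. Of 10 genes of marrow progenitors and precursors, 2 reached 1 TPM in both libraries, Cd48 and the stem cell factor receptor gene Kit. Elane and Ms4a3 had 0 counts in both libraries, while the granule genes Mpo, Prtn3 and Ctsg had 4 or fewer. Of 7 neutrophil genes, 2 reached 1 TPM in both libraries, Mmp8 (1.2 and 2.59 TPM) and S100a9 (1.59 and 1.54 TPM). These 7 genes summed to 4.82 and 6.93 TPM, and to 3.62 and 4.09 in the second quantification. In the first, all 6 B and plasma cell genes and all 6 stromal and endothelial genes were under 1 TPM in both libraries. In the second, these lists summed to 2.91 and 4.16 TPM and to 4.06 and 14.2 TPM. The summed level of 7 T and NK cell genes was 0.03 and 0.04 TPM. The second quantification put that sum at 3.40 and 14 TPM, mostly from Cd3d (3.01 and 13.1 TPM), to which the first gave 0 counts. The libraries held 22669533 and 14939143 estimated counts, and a protein-coding gene near 1 TPM rested on a median of 72 and 32 counts, so a gene under 1 TPM is measured from few reads, chiefly in replicate 2.

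The D-type cyclins start the cycle, and 1 of the 3 made up most of their RNA. Ccnd2, which encodes cyclin D2, was at 20.02 TPM in replicate 1 and 20.44 in replicate 2 (mean 20.2 ± 0.297, SD, n = 2), from 2640 and 1492 estimated counts. Rescaled to protein-coding genes, Ccnd2 was at 89.6 and 52.1 TPM, so the closeness of the libraries depends on the scale. Ccnd1, for cyclin D1, was at 1.52 and 2.55 TPM. Ccnd3, for cyclin D3, was at 1.54 and 2.25 TPM. Cyclin D2 thus supplied 86.7% and 81.0% of the summed TPM of the 3 genes, and the libraries of Ccnd1 and Ccnd3 overlapped. By the second quantification its share was 92.1% and 88.5%. The value of Ccnd3 is uncertain, because its deposited intervals, from 2.46 to 5.39 TPM in replicate 1 and from 3.96 to 9.33 in replicate 2, lie above the deposited values. Ccnd1 shares its locus on chromosome 7 with the opposite-strand gene listed as LTO1, which was at 11.85 and 5.73 TPM, and the strand setting of the counting is not stated in the sources used.

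Of the partners and opponents of these cyclins, the kinase genes Cdk4 and Cdk6 and the inhibitor genes Cdkn1a and Cdkn1b were above Ccnd1 and Ccnd3 in both libraries, whereas the 7 CDK inhibitors as a list had a median of 1.2 and 1.1 TPM. Cdk6, one of the kinases that bind D-type cyclins, was at 110.79 and 115.25 TPM. Cdk4, the other, was at 10.2 and 17.65 TPM, so that Cdk6 exceeded it 10.9-fold and 6.53-fold. Rb1, the retinoblastoma gene whose product these kinases inactivate, was at 7.68 and 9.36 TPM. All 6 genes of the list of G1 kinases and pocket proteins reached 1 TPM in both libraries. Among the 7 CDK inhibitors, Cdkn1a, which encodes p21 and is a target of p53, was by far the highest at 116.39 and 142.38 TPM, which was 5.81 and 6.97 times the level of Ccnd2. Cdkn1b, for p27, was at 9.42 and 11.03 TPM.

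The remaining inhibitors were near or below 1 TPM or differed between libraries. Cdkn1c, for p57, was at 1.2 and 3.78 TPM, and Cdkn2d, for p19INK4D, was at 2.78 and 1.1 TPM, and relative to other genes their log2 ratios between the libraries were 1.08 and -1.60 by scaled counts. Cdkn2c, for p18, was at 1.01 and 0.73 TPM, and Cdkn2b, for p15, at 0.29 and 0.15 TPM. Cdkn2a, the gene of p16 and p19ARF, had 0 and 1 estimated counts, and a count of 0 in replicate 1 allows up to 0.132 TPM, counting error only. Of the genes of growth signals and antiproliferative functions, Gadd45b, a stress gene, was at 240.23 and 166.62 TPM, and Mdm2, the p53 ubiquitin ligase, was at 149.03 and 185.28 TPM. Csf1r, the receptor for the growth factor CSF1, was at 168.17 and 259.98 TPM. All 11 genes of the list of growth signals and antiproliferative genes, which these 3 lead, reached 1 TPM in both libraries and 7 reached 10 TPM, with a median of 22.4 and 18.4 TPM.

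**Figure D2:**
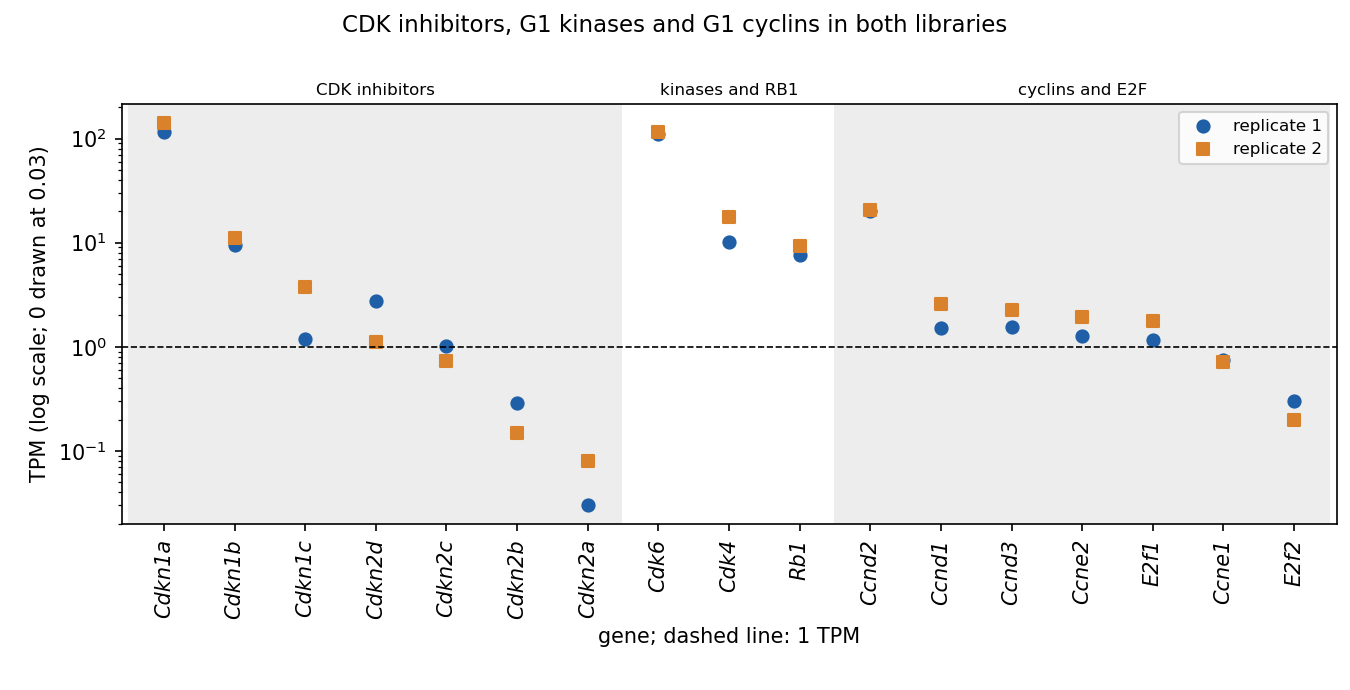
TPM on a log axis of the CDK inhibitors, of Cdk6, Cdk4 and Rb1, and of the G1 and G1/S cyclins and E2F activators, with circles for replicate 1 and squares for replicate 2 (a value of 0 is drawn at 0.03, and the dashed line marks 1 TPM). Cdkn1a and Cdk6 are above 110 TPM in both libraries, Ccnd2 is near 20 and the E-type cyclins and E2F activators are under 2.

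Genes of the G1/S switch were at low levels. Ccne2, for cyclin E2, was at 1.27 and 1.92 TPM, and Ccne1, for cyclin E1, was at 0.75 and 0.71 TPM. The second quantification put Ccne1 at 2.53 and 2.55 TPM, which was 3.48 times higher on average. E2f1, an activator of replication genes, was at 1.17 and 1.78 TPM, and E2f2, a related activator, was at 0.3 and 0.2 TPM. The other factors of the E2F and DREAM families were better represented, 10 of 14 reaching 1 TPM in both libraries. E2f4, the main repressor-type E2F of resting cells, was at 10.5 and 14.43 TPM, E2f8, an atypical repressor, was at 9.33 and 11.97 TPM, and Rbbp4, a histone-binding subunit of MuvB, was at 5.61 and 10.64 TPM. Ccne2 overlaps the opposite-strand gene Ints8 (15.38 and 23.25 TPM), which exceeds it.

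Of the 10 genes of origin licensing and the helicase, 3 reached 1 TPM in both libraries. Cdt1, which loads the helicase onto origins, was the highest at 6.8 and 6.72 TPM (mean 6.76 ± 0.0566, SD, n = 2). Rescaled to protein-coding genes, Cdt1 was at 30.4 and 17.1 TPM. Cdc6, which acts with Cdt1 at the same step, was the lowest of all 39 genes by mean level, at 0.1 and 0.07 TPM from 13 and 5 counts. The contrast between these 2 loading factors was the widest within this role. Cdt1 overlaps Gm20388 on the same strand, which was at 3.62 and 4.97 TPM, so reads may have been divided between both.

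The MCM2 to MCM7 proteins form a ring with 1 copy of each, but their RNAs were not level. Mcm6 was highest in both libraries at 2.64 and 2.28 TPM, followed by Mcm3 at 1.6 and 1.18 TPM. Mcm2 was at 1.18 and 0.72 TPM, Mcm4 at 0.83 and 0.91 TPM, Mcm7 at 0.76 and 0.65 TPM, and Mcm5 at 0.71 and 0.64 TPM. In the second quantification Mcm6 was again highest in both libraries, at 2.71 and 1.44 TPM. The order below it changed, with Mcm3 at 0.819 and 0.937 TPM, Mcm2 at 0.814 and 0.807, and Mcm5 at 0.533 and 1.04. The GINS subunits, which complete the active helicase, were at 0.93 and 1.49 TPM for Gins2 and at 0.07 and 0.13 TPM for Gins1. Gins1 rested on 2 counts in each library and Gins2 lies opposite Gse1 and Gm20388, so neither is a firm value. Among 15 other origin factors, 9 reached 1 TPM in both libraries, led by the origin recognition subunits Orc4 (28.95 and 45.32 TPM) and Orc3 (9.21 and 15.43 TPM), and by Mcm9 (4.25 and 7.99 TPM), a helicase of DNA repair.

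The enzymes of DNA synthesis and nucleotide supply ranged widely. Pcna, the sliding clamp of DNA polymerases, which also serves DNA repair, was at 18.77 and 20.04 TPM (mean 19.4 ± 0.898, SD, n = 2) from 690 and 397 counts. Rescaled to protein-coding genes, Pcna was at 84.0 and 51.1 TPM. Tk1, the thymidine kinase of S phase, was at 8.41 and 7.95 TPM. Rrm1, the large subunit of ribonucleotide reductase, was at 1.36 and 1.07 TPM, and Rrm2, the subunit that limits the enzyme in cycling cells, was at 0.22 and 0.55 TPM. Tyms, thymidylate synthase, was at 0.89 and 1.68 TPM. Of 19 further DNA polymerases and replication factors, 10 reached 1 TPM in both libraries, and 0 reached 10 TPM in both. The highest were Rfc2, a clamp loader subunit (8.81 and 9.39 TPM), Pola2, a primase-polymerase subunit (7.6 and 9.08 TPM), and Dck, a deoxynucleoside salvage kinase (5.93 and 3.4 TPM).

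None of the 7 genes of mitotic entry reached 1 TPM in both libraries. Ccna2, for cyclin A2, came nearest at 1.16 and 0.95 TPM. Foxm1, the transcription factor of the mitotic wave, was at 0.88 and 0.94 TPM, and Cdk1, the mitotic kinase, was at 0.6 and 0.72 TPM. Ccnb1, for cyclin B1, was at 0.8 and 0.28 TPM from 30 and 7 counts, and Ccnb2, for cyclin B2, was at 0.44 and 0.18 TPM from 20 and 4 counts. Plk1, a kinase of mitotic entry and exit, was at 0.43 and 0.47 TPM, and Aurka, a centrosome kinase, was at 0.62 and 0.27 TPM. In the second quantification Cdk1 was 7.31 times higher, at 4.11 and 5.54 TPM, and most of that came from the short transcript Cdk1-207 (3.47 and 5.05 TPM), to which the first quantification gave 2 and 0 counts.

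Mki67 was the exception among the genes of mitosis and, in the first quantification, the highest of all 39, while in the second Ccnd2 was higher in both libraries. It encodes Ki-67, a large protein that coats mitotic chromosomes and is used as a marker of dividing cells. Its level was 26.39 TPM in replicate 1 and 31.49 in replicate 2 (mean 28.9 ± 3.61, SD, n = 2), from 8869 and 5104 estimated counts, which were 55.6% and 56.5% of the counts of all 39 genes. Rescaled to protein-coding genes, Mki67 was at 118 and 80.3 TPM. It stood at the 83.6th and 82.8th percentile of expressed protein-coding genes. Nearly all of these counts (99.9% and 99.8%) were given to the full-length transcript Mki67-201, of 10061 bases. The median of the 16 other mitotic genes was 0.665 and 0.475 TPM, which Mki67 exceeded 39.7-fold and 66.3-fold, and in the second quantification 27.1-fold and 27.7-fold.

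Top2a, the topoisomerase that untangles chromosomes and another usual marker of dividing cells, was at 3.24 and 2.32 TPM. Mki67 exceeded it 8.15-fold and 13.6-fold, and 5.47-fold and 5.13-fold in the second quantification. Between the main coding transcripts, Mki67-201 and Top2a-201, the ratio was 15.6 and 20, and the second quantification gave 16 and 20. The opposite-strand gene Gm45240 overlaps Mki67 and was at 2.29 and 6.64 TPM from 36 and 53 counts, far fewer than the counts of Mki67. Cenpa, the histone variant that marks centromeres, was the next mitotic gene at 5.08 and 7.11 TPM.

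The other 7 genes of spindle, kinetochore and chromosomes were under 1 TPM in both libraries. Cenpe, a kinetochore motor, was at 0.82 and 0.77 TPM, and Kif11, the spindle motor Eg5, was at 0.61 and 0.37 TPM. Bub1b and Bub1, kinases of the spindle checkpoint, were at 0.71 and 0.56 TPM and at 0.48 and 0.25 TPM. Aurkb and Birc5, members of the chromosomal passenger complex, were at 0.77 and 0.41 TPM and at 0.48 and 0.48 TPM. Cdc20, the activator of the anaphase-promoting complex, was at 0.37 and 0.04 TPM, from 12 counts in replicate 1 and 1 in replicate 2. Cdc20 lies opposite Elovl1, which was at 23.13 and 34.47 TPM. Of 26 further mitotic genes, 9 reached 1 TPM in both libraries and 15 in neither. The highest were Pttg1, which encodes securin (19.0 and 13.82 TPM), Pkmyt1, an inhibitory kinase of CDK1 (14.32 and 11.37 TPM), and Mad2l1, a checkpoint protein (8.78 and 15.29 TPM).

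The promoters were searched for 3 short elements known from cell cycle genes. RefSeq promoters (GRCm38.p6), from 250 bases before to 50 after the start, were found for 30 of the 39 genes, of which 3 have 2 promoters. A match in either counts, and no difference between roles was tested. The cell cycle genes homology region was searched as TTTGAA or TTCGAA on both strands, and was present in 14 of the 30 genes (46.7%), against 20.2% of 17491 protein-coding genes counted the same way and 19.2% of all 32851 promoters. It was present in 11 of 14 genes of the 2 mitotic roles and in 3 of 16 genes of the other roles. E2F sites, searched as TTTCCCGC, TTTCGCGC, TTTGCCGC or TTTGGCGC on both strands, were present in 8 of the 30 (26.7%), against 3.29% of those genes and 2.26% of all promoters. They were present in 1 of 14 mitotic genes (Cdk1) and in 7 of 16 others, namely Cdc6, Cdt1, E2f2, Mcm3, Mcm5, Mcm6 and Mcm7. The others, Pcna, Tk1, Rrm1, Rrm2, Tyms, Ccnd3, Ccne1, E2f1 and Mcm2, had no E2F match. The CCAAT box, bound by the factor NF-Y, was present in 23 of the 30 (76.7%), against 42.3% of those genes and 37.4% of all promoters, in 13 of 14 mitotic genes and 10 of 16 others. A match to such short words is a description of the sequence and not evidence of a bound site, and lack of a match does not show that a site is absent. The end of the searched stretch was found near the start of an annotated transcript of the gene for 27 of the 33 promoters, so some may be misplaced.

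Of the mitotic genes with the homology region, the 2 highest by level and the lowest are shown, with the element in capitals, so that the same word can be seen in promoters whose RNA differed widely, and Mcm6 is shown for its E2F sites in capitals. Each runs 5′ to 3′ on the gene's strand and covers the 250 bases before the start, with the first 30 bases after it for Cenpa, where the match lies.
Mki67 (chr7:135716380-135716629, minus strand): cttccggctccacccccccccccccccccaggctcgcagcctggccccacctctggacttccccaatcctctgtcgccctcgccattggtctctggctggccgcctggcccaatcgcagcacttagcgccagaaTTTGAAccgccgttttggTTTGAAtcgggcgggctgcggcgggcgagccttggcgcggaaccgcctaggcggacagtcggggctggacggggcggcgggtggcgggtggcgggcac
Cenpa (chr5:30666636-30666915, plus strand): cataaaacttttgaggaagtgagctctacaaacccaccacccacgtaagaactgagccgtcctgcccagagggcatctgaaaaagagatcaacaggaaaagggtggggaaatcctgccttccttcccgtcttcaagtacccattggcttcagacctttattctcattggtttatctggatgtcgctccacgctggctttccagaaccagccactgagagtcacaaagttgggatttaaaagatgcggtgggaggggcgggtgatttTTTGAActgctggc
Cdc20 (chr4:118437344-118437593, minus strand): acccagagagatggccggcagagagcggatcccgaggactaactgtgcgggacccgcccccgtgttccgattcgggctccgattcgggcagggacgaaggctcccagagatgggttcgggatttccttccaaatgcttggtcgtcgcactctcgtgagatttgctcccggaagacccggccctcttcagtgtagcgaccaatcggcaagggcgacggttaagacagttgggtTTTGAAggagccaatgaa
Mcm6 (chr1:128359706-128359955, minus strand): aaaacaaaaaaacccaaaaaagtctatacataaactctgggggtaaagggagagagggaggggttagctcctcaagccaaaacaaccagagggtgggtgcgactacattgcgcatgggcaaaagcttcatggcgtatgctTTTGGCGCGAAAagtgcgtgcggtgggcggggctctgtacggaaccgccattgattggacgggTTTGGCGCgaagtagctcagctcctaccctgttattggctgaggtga
In Mki67 the element occurs at 116 and 98 bases before the start, in Cdc20 at 18 bases before it and in Cenpa at 16 bases after it, counted to the first base of the match. Top2a holds 4 matches, at 179, 140, 120 and 23 bases before the start. Mcm6 has 3 E2F matches, at 110, 106 and 47 bases before the start, of which the first 2 overlap on opposite strands. Genes with the homology region had a median of 0.615 and 0.515 TPM and ranged from a mean of 0.205 to 28.9 TPM, and those without had 1.03 and 1.12 TPM and ranged from 0.0850 to 19.4 TPM, so the ranges overlapped almost entirely.

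Much of the RNA of several genes was assigned to transcripts that are not annotated as protein-coding. These were mostly retained-intron transcripts, which keep an intron that the coding message lacks. Among the 14 genes that reached 1 TPM in both libraries, 12 have such a transcript, and the median share of TPM in them was 37.6% in replicate 1 and 29.1% in replicate 2. The same median over 7207 protein-coding genes at that level was 40.2% and 39.2%, so in the first quantification it did not exceed that of expressed genes. The second quantification gave 67.7% and 55.2%, against 53.3% and 53.1% over those genes.

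Tk1 had the highest retained-intron share in the first quantification, 85.1% and 81.1% (in the second, 83.1% and 88.3% against 84.0% and 90.2% for Rrm1), spread over several transcripts of which Tk1-202 led at 1.98 and 2.01 TPM. The coding transcript Tk1-201 was at 1.25 and 1.5 TPM. Cenpa had 73.8% and 86.2% outside protein-coding transcripts, divided between retained introns (47.3% and 49.5%) and targets of nonsense-mediated decay (26.4% and 36.7%). For Ccnd2 the share was 58.3% and 52.8%, and the retained-intron transcript Ccnd2-208 (11.5 and 10.8 TPM) exceeded the coding Ccnd2-201 (5.89 and 8.11 TPM). Cdt1 had 39.4% and 38.5% in retained introns, and Pcna had 35.7% and 23.8% outside coding transcripts, with Pcna-201 leading at 12.07 and 15.28 TPM. Mki67 and E2f1 have coding transcripts alone and stood at 0%. For Tk1, Cenpa and Ccnd2 the noncoding share of TPM was above 50% in both libraries and in both quantifications. In the first, they were the 3 of 12 genes above that line, which 35.6% and 36.7% of expressed protein-coding genes with such a transcript also passed. In the second, 7 and 6 of the 12 passed it, against 54.4% and 53.9%. Of the estimated counts of Ccnd2, the noncoding share was 49.9% and 41.2%.

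**Figure D3:**
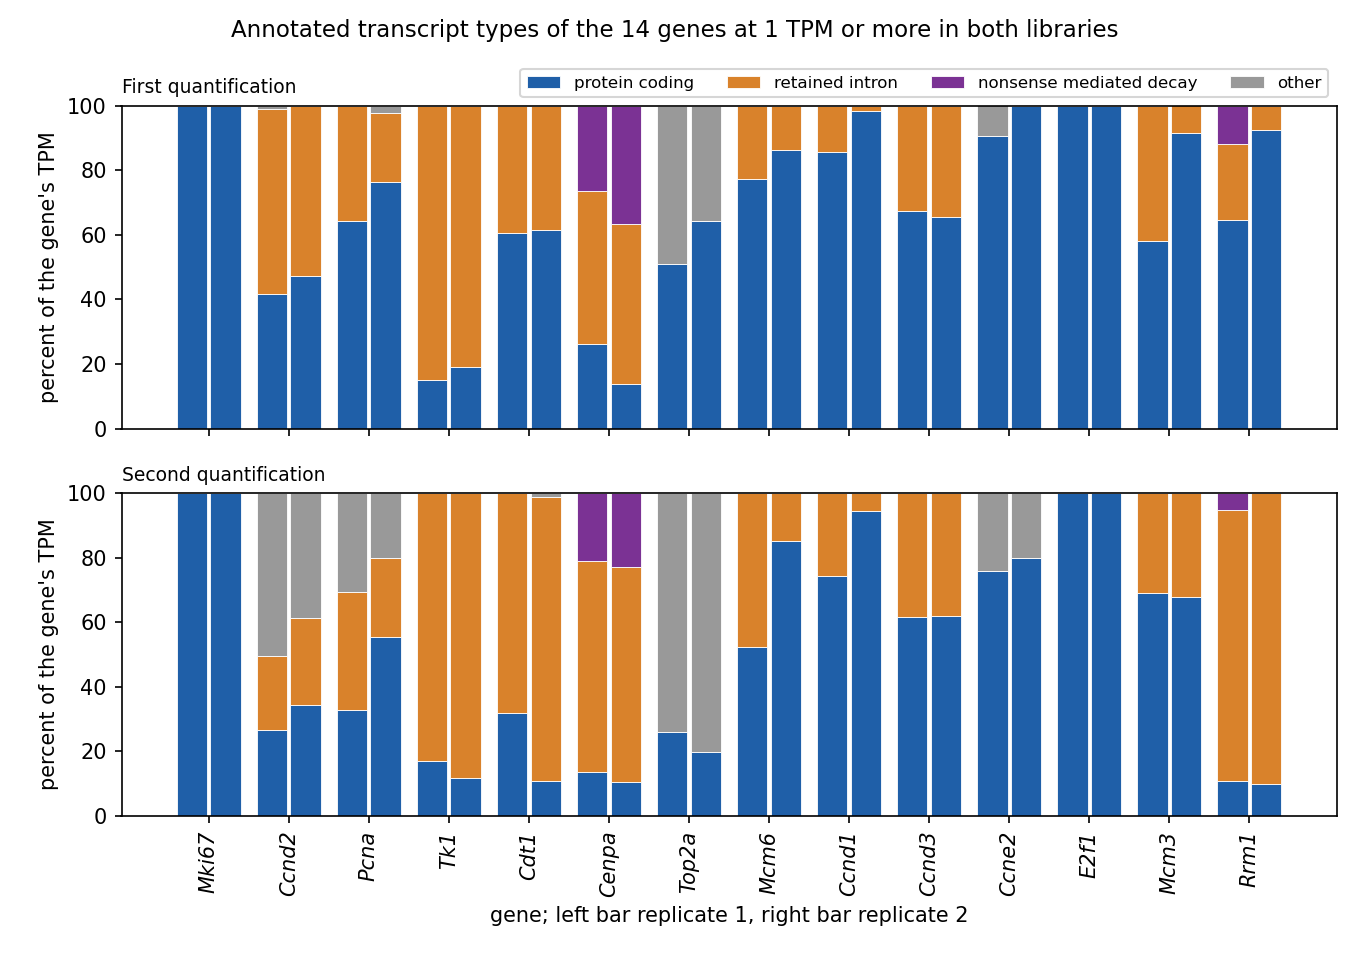
Stacked bars of the percent of each gene's TPM by annotated transcript type, for the 14 genes that reached 1 TPM in both libraries (left bar replicate 1, right bar replicate 2), with the first quantification above and the second below. Tk1 and Cenpa are mostly noncoding in every bar, and Rrm1 turns from mainly coding in the first quantification to mainly retained intron in the second.

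Most genes of mitosis had lower values in replicate 2, by a margin that depended on the quantification. No test compares the genes of mitosis with those of the earlier phases. In the second quantification the origin licensing genes at a mean of 1 TPM or more had a lower median log2 ratio (-0.49 over 4 genes) than the 16 mitotic genes described next. Ratios are log2 of replicate 2 over replicate 1, relative to the median of 9011 protein-coding genes at a mean of 1 TPM or more. With 1 library on each side there is no test. Counts scaled by TMM, a method that balances the libraries on most genes, are used here besides TPM, since TPM of these libraries differ by a median of 0.39 on the log2 scale before centring. For the 16 mitotic genes other than Mki67, the median log2 ratio was -0.94 by TMM, -0.77 by TPM and -0.29 by the second quantification, and 15, 15 and 13 of the 16 were lower in replicate 2. Over all 39 genes, which include these 16, the medians were -0.45, -0.47 and -0.25, and 32, 30 and 29 were lower. Over 1.5-fold lower were 13 of the 16 by TMM, against 19.8% of the protein-coding genes at 0.2 to 1 TPM, the range of most of them. By TPM there were 10 (22.9% of such genes) and by the second quantification 7 (15.7%). Their counts summed to 1450 and 691, or 64.7 and 46.4 CPM. Those genes at 0.2 to 1 TPM had a median log2 ratio of -0.01 by TMM, and 50.2% of them were lower.

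By TMM the log2 ratio was -1.87 for Cdc20, -1.41 for Ccnb2, -1.32 for Ccnb1, -1.26 for Aurka, -1.13 for Aurkb, -1.07 for Plk1 and -1.01 for Bub1b. Each of these rested on 20 counts or fewer in replicate 2. Kif11 was at -1.05 from 93 and 29 counts, and Top2a was at -0.64 from 330 and 140 counts. By the second quantification Kif11 was at -0.02, Top2a at -0.07 and Aurkb at -0.06, so for these 3 genes the gene totals of the quantifications differed. Before centring, the coding Kif11-201 (0.394 and 0.311 TPM), Top2a-201 (0.926 and 0.832) and Aurkb-201 (0.203 and 0.0966) were lower in replicate 2 there too. The noncoding Kif11-202 (0.295 and 0.555), Top2a-205 (1.19 and 2.38) and Aurkb-208 (1.06 and 1.66) were higher, whereas the noncoding Top2a-203 and Aurkb-207 were lower. Cdk1 (-0.87 by TMM and 0.11 by the second quantification) and Birc5 (-0.69 and 0.40) changed sign. The cause was not tested. Cenpa was the exception with a log2 ratio of 0.13, and Mki67 was at -0.21. With only the 10 mitotic genes of 20 counts or more on average, 9 were lower and 7 over 1.5-fold lower by TMM. The TMM shares over 1.5-fold lower were 19.8% of genes at 0.2 to 1 TPM and 8.62% at 1 TPM or more. The list of 26 further mitotic genes showed 23 lower by TMM, with a median of -0.50. Of these 26, 11 (42.3%) were over 1.5-fold lower by TMM, beside the same shares. But in the second quantification 14 were lower, with a median of -0.06. There 4 of the 26 were over 1.5-fold lower (15.4%), near the 15.7% of genes at 0.2 to 1 TPM and the 10.6% at 1 TPM or more. Pttg1, the highest of them, was at -1.03 by TMM and -0.59 by the second quantification.

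Replicate 2 was also the smaller library and started from less RNA. The macrophage markers summed to 2112 and 2821 TPM, but relative to other genes their log2 ratios by TPM ran from -0.82 (Fcgr1) to 0.24 (Mpeg1 and Csf1r). The marrow progenitor markers summed to 31.8 and 45.5 TPM, of which Cd48 made 29.69 and 41.56, but relative to other genes the log2 ratio of Cd48 was 0.10 by TPM and 0.08 by TMM. The 6 erythroid and megakaryocyte markers summed to 0.830 and 4.29 TPM (2.73 and 4.50 in the second quantification), with Hba-a1 and Klf1 at 0 counts in both libraries. Most of both sums came from Alas2 (0.28 and 2.54 TPM, from 4 and 17 counts) and Itga2b (0.38 and 1.32 TPM, from 29 and 16 counts). By TMM the log2 ratio was 2.13 for Alas2 and -0.24 for Itga2b. The part of these values in the difference was not tested.

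Of the 17 genes at a mean of 1 TPM or more, the median log2 ratio was -0.29 by TPM, -0.20 by TMM and -0.10 by the second quantification. Over 1.5-fold lower in replicate 2 were 5 of the 17 by TPM (10.6% of all 9011 genes), 1 by TMM (8.62%) and 3 by the second quantification (10.6%). Over 1.5-fold higher were 0 by TPM (6.09%), 0 by TMM (3.81%) and 1, E2f1, by the second quantification (6.18%). Among genes with a mean of 50 counts or more, the largest log2 ratio by TPM was that of Mcm2 at -1.03, followed by Kif11, Top2a, Mcm3 at -0.80 and Rrm1 at -0.71. By TMM, Mcm2 was at -0.52, Mcm3 at -0.20 and Rrm1 at -0.30, all within 1.5-fold. In these 3 genes the effective length deposited for replicate 2 was longer, for example 1813 and 2854 bases for Mcm3, and the TPM ratio was lower than that of the counts.

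**Figure D4:**
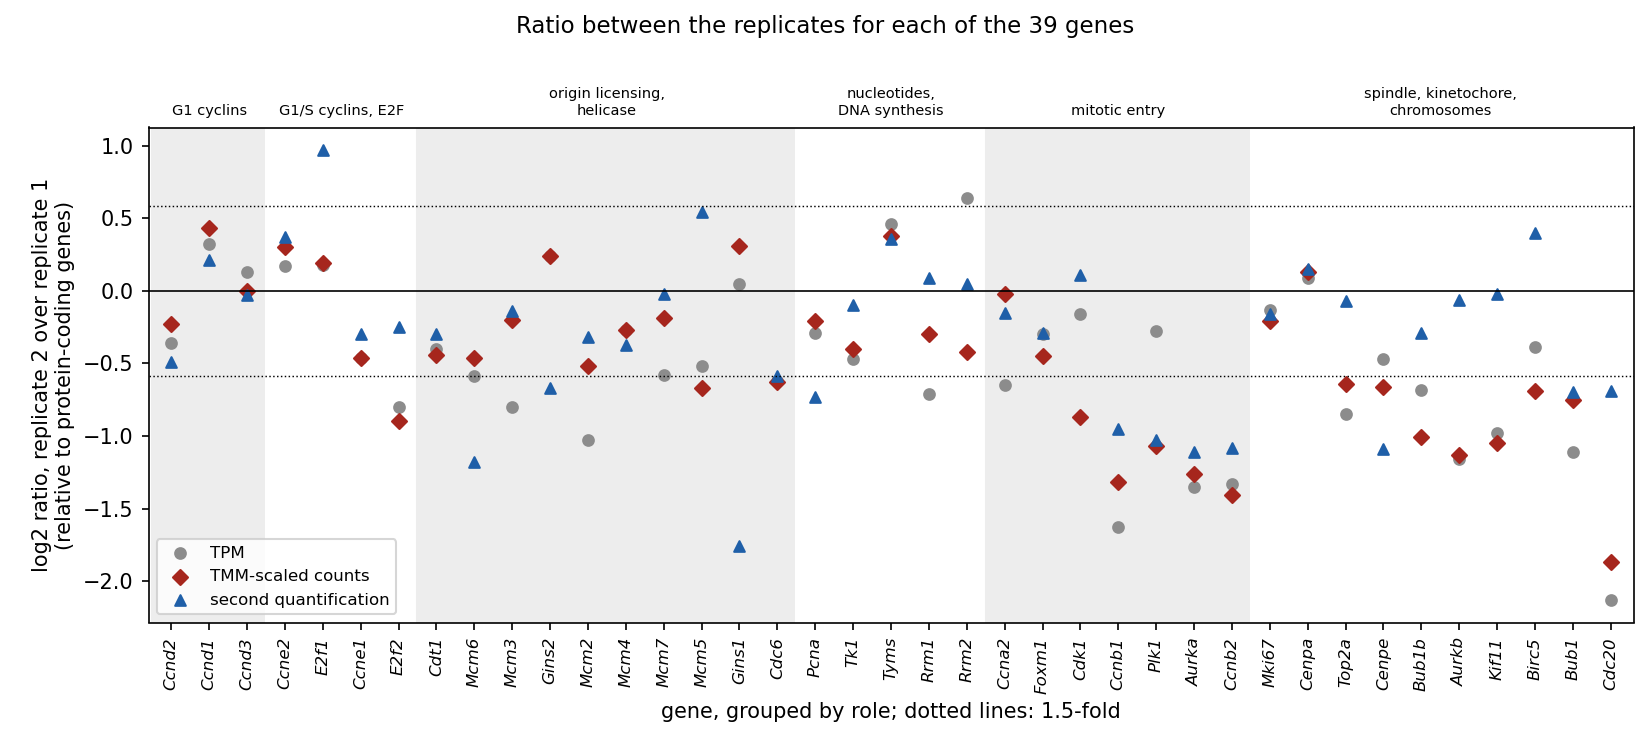
Log2 ratio of replicate 2 over replicate 1 for each of the 39 genes, relative to protein-coding genes at a mean of 1 TPM or more, by TPM (circles), TMM-scaled counts (diamonds) and the second quantification (triangles), with dotted lines at 1.5-fold. In the 2 mitotic roles at the right all TMM values are below 0 but that of Cenpa, and Cdc20 is lowest at -1.87.

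The 2 quantifications of the same libraries differed by more than 2-fold for 8 of the 39 genes. Of the 17 genes at a mean of 1 TPM or more, 3 did, against 7.95% of protein-coding genes at that level. At 0.2 to 1 TPM, 4 of 20 did, against 32.6%. The second was higher for Cdk1 (7.31 times), Birc5 (6.12), Gins1 (5.89), Rrm1 (4.45), Ccne1 (3.48), Aurkb (2.87) and Tyms (2.62). It was lower for Gins2 (0.486 times). For Rrm1 the added RNA lay in retained-intron transcripts, with Rrm1-203 at 0.06 and 0 TPM in the first quantification and at 1.99 and 2.62 TPM in the second. For Birc5 it lay in the coding transcript Birc5-202, at 0.31 and 0.22 TPM in the first and at 2.13 and 3.61 TPM in the second. Mki67, Ccnd2, Pcna, Tk1, Cdt1 and Cenpa, the 6 genes that reached 5 TPM in both libraries, stayed within 2-fold. Across the 39 genes Spearman's rho between the quantifications was 0.83, over genes that share both libraries.

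**Figure D5:**
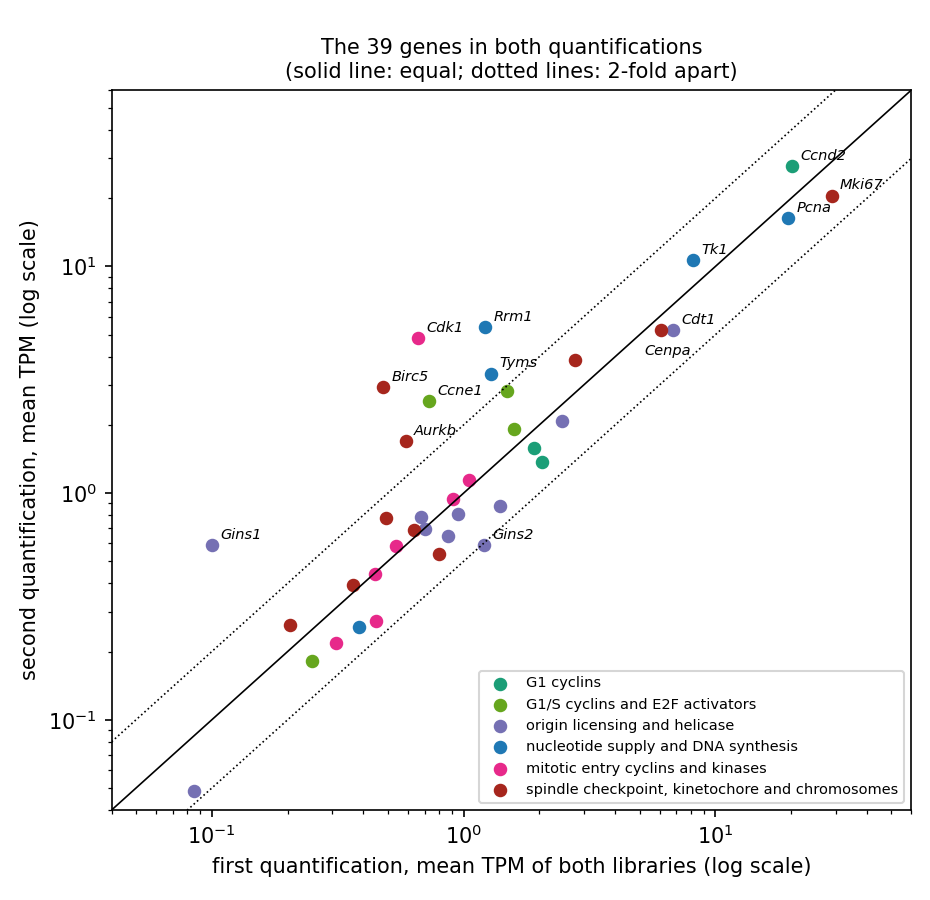
Mean TPM of both libraries by the second quantification against the first for each of the 39 genes, on log axes and coloured by role, with a solid line where both are equal and dotted lines 2-fold apart. The 7 genes above the upper dotted line are Cdk1, Birc5, Gins1, Rrm1, Ccne1, Aurkb and Tyms, and Gins2 lies just below the lower one.

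A deposited value also fell outside its own deposited interval for some of the genes. In at least 1 library 12 of the 39 had a TPM below the lower bound, and 5 did in both. Of the 14 expressed members 2 were below it, Ccnd3 in both replicates and Rrm1 in replicate 2. Among all expressed protein-coding genes 3.23% were below it in replicate 1 and 3.82% in replicate 2, so the 14 were not freer of such values. Other genes overlap 16 of the 39, and 13 of these have an overlap on the opposite strand. For 7 of the 39 the opposite-strand gene was above 20% of the member's own level in both libraries, namely Ccnd1, Ccnd3, Ccne2, Gins2, Ccna2, Mcm7 and Cdc20. Without the strand setting of the counting, reads of these genes and their partners cannot be told apart where the genes overlap.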

How the data were processed

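Each library has gene and transcript tables of a first quantification and a further transcript table, all deposited by the authors. Per the file headers and accompanying notes, the first used reads aligned to the transcripts of GENCODE release M21 (mm10), and the further one was run straight on 10 read files for each library. The software of both steps is not given in the sources used here. Expected counts, as deposited, are unnormalized estimated reads. The deposited TPM and FPKM are scaled by the authors to transcript length and library. The deposited signal bounds of TPM are interval limits of unstated level.

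Genes were found by symbol, and the second table was summed per gene. Ratios used log2 of TPM with a pseudocount of 0.1, TMM-scaled rounded counts (edgeR 4.0.16, prior count 2) and DESeq2 1.42.0 size factors. The scaling was tested on simulated data for well-counted genes only, so that test does not cover ratios resting on few counts. Computation used R 4.3.3, Python 3.11.15, numpy 2.4.6, pandas 2.3.3 and matplotlib 3.10.9. Promoters came from RefSeq. With 1 group of 2 libraries the report holds no test and no p-value. A count of 0 allows up to 3 counts, and such limits cover counting error only. The members, the 7 lists with 98 other cell cycle genes and the 7 marker lists were chosen with earlier results of these data known. Genes outside the members are named by a rule: all CDK inhibitors, the 3 highest of each other list and the 5 members with the largest ratio at a mean of 50 counts or more. The markers, overlapping genes, the mitotic ratios, the Mcm6 promoter and other transcripts were named after their values were seen. In the erythroid list, 1 further marker is not reported here. Proteins of the D-type cyclins were to be shown but are not used here.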

Additional observations from a re-analysis of the deposited data

How the results depend on the processing

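Of the 39 genes 14 reached 1 TPM in both libraries, and the count was 26 at 0.5 TPM, 6 at 5 TPM and 29 on TPM rescaled to protein-coding genes, and 19 by FPKM or the second quantification. Leaving out 1 replicate gave 16 either way. The median TPM of the members (0.800) was 0.987 by the second quantification, 2.84 rescaled, and 0.770 to 0.830 without 1 replicate. The median log2 ratio between the libraries (-0.29) kept its sign, at -0.20 by TMM, -0.21 by DESeq2 size factors, -0.10 by the second quantification, -0.32 at 5 TPM or more, -0.39 with no filter and -0.24 with a pseudocount of 1. The 5 genes over 1.5-fold lower became 1 by TMM, by DESeq2 size factors or with a pseudocount of 1, 3 by the second quantification and 0 at 5 TPM or more, where fewer genes were counted. The 0 genes over 1.5-fold higher became 1 by the second quantification. Rrm1 reversed from -0.71 to 0.09 by the second quantification, and the cause was not tested. The median share of TPM outside coding transcripts (33.3%) was 61.4% by the second quantification, 14.5% of estimated counts, and 29.1% to 37.6% without 1 replicate. By the second quantification, the shares of Ccnd1, Ccnd2 and Ccnd3 among D-type cyclins (8.34%, 83.9% and 7.79%) were 4.51%, 90.3% and 5.18%. Without 1 replicate they ranged from 6.59% to 10.1%, from 81.0% to 86.7% and from 6.67% to 8.91%. Within the 250 bases before the start, E2F sites were in 5 genes in place of 8. The homology region was in 10 in place of 14 and the CCAAT box in 23. Alternatives chosen after seeing the data gave the following. The count of mitotic genes over 1.5-fold lower by TMM (13 of 16) was 10 by TPM, 13 by DESeq2 size factors, 7 by the second quantification and 7 of the 10 genes with 20 counts or more. Among the 26 further mitotic genes the count of 11 was 4 by the second quantification. The ratio of Mki67 to the median of the other mitotic genes (53.0) was 27.4 by the second quantification, and 39.7 to 66.3 without 1 replicate. The second quantification moved the mean TPM of 23 of the 39 genes by more than the SD of the replicates. Depth limits the genes under 1 TPM: 9 of the 39 had under 10 counts in replicate 2. No paired analysis was possible because there is 1 group.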
